A study of Mus musculus with 10 samples.

Results

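The 10 genes described here run the making, breaking and self-limiting control of polyamines, in quadriceps of old mice whose drinking water carried a supplement called 1C-MIM and of old mice on plain water. They were chosen as a list of symbols (Odc1, Srm, Sms, Sat1, Smox, Paox, Oaz1, Oaz2, Azin1 and Azin2), and where a symbol had several RefSeq transcripts the one with the most counts over all libraries stood for it. All 10 were found among 24063 symbols, and all 10 were among the 13880 genes with enough reads to be tested. The 5 1C-MIM and 5 Control libraries came from wild-type C57BL mice aged 17 to 20 months. The 1C-MIM mice drank water with the supplement for 1 to 3 months, and the Control mice drank facility water. The sampled quadriceps was uninjured, while the tibialis anterior of the same mice, in both groups, had been injured. The sources used here do not give the composition or dose of 1C-MIM, the sex of the mice or the time between injury and collection. The labels give 150 mL of water and at most 5 mice per cage for every library. Each library carries its own animal number, so n is a number of mice. No label ties a mouse to a cage, so it is not known which mice of a group shared a cage and its water.

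Polyamines are small positively charged molecules that bind RNA and DNA and that growing cells need. Ornithine decarboxylase makes putrescine, and spermidine synthase and spermine synthase then add aminopropyl groups taken from decarboxylated S-adenosylmethionine. The way back is run by spermidine/spermine acetyltransferase with polyamine oxidase, and by spermine oxidase, which turns spermine straight into spermidine and releases hydrogen peroxide. Antizymes, whose own translation needs a ribosomal frameshift that polyamines promote, bind ornithine decarboxylase and hand it to the proteasome, and antizyme inhibitors, inactive relatives of the decarboxylase, hold antizyme off. In mouse muscle, spermine oxidase has been reported to help maintain fibre size.

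The libraries held 28521254 to 31771296 counts on the kept transcripts. The 10 myofibre markers (among them Acta1, Ckm and Myh4) together held 179500 to 203032 counts per 1000000 (CPM, scaled by TMM factors) in 1C-MIM and 170365 to 196177 in Control, and none was at 0. Of these 10, the fast myosin genes Myh4 (24.8% higher, adjusted p = 0.00719 by edgeR) and Myh1 (33.9% higher, adjusted p = 0.00678) were called, and Myh2 had groups that did not overlap without passing the test (adjusted p = 0.0538). Of the 16 macrophage markers 14 were called lower in 1C-MIM, where 11.8% of all genes tested were, and their summed level was 181 to 256 CPM in 1C-MIM and 315 to 595 CPM in Control, with none at 0. Of 7 tested lymphocyte markers 4 were called lower, and the list summed to 10.2 to 15.4 CPM in 1C-MIM and 20.1 to 38.5 CPM in Control. Of 8 fibro-adipogenic and matrix markers 6 were called lower, and the list summed to 556 to 875 CPM in 1C-MIM and 798 to 1160 CPM in Control. Its members Pdgfra and Dcn were not called (log2 fold changes 0.03 and 0.07, adjusted p = 0.892 and 0.689 by edgeR). The 7 satellite and regenerating fibre markers, 5 of them called lower, summed to 53.7 to 64.3 CPM in 1C-MIM and 97.9 to 167 CPM in Control, highest in Control 1. Expression also moved with transcript length: the slope of a library's deviation from the gene means, per doubling of length, was -0.03 to 0.12 in 1C-MIM and -0.14 to -0.01 in Control, lowest in Control 5, with 1C-MIM 1 (-0.03) below Control 1 and Control 2. In such bulk samples, fewer cells of a type and less RNA per cell cannot be told apart.

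Per transcript length, Smox was the most abundant of the 10 genes, as the plot of levels shows. The deposited TPM values (transcripts scaled per length to a fixed library total), the only values here that compare different genes, averaged 172 ± 43.0 TPM for Smox in 1C-MIM and 243 ± 40.5 TPM in Control (SD, n = 5 each). Oaz1 followed at 146 ± 10.7 TPM in 1C-MIM and 166 ± 2.54 TPM in Control. The order of these neighbours was not fixed, since Smox lay above Oaz1 in 8 of 10 libraries but below it in 1C-MIM 1 and 1C-MIM 3. Then came Oaz2 (65.5 to 79.1 TPM over all libraries), Odc1 (34.2 to 50.6 TPM) and Sms (22.9 to 27.8 TPM), each above the next in 10 of 10 libraries. Sat1 (7.80 to 11.5 TPM), Azin1 (5.55 to 10.3 TPM) and Srm (5.59 to 7.04 TPM) formed a low group, in which Sat1 lay above Azin1 in 9 libraries and Azin1 above Srm in 8. Azin2 (1.08 to 1.97 TPM) and Paox (0.814 to 1.26 TPM) were the lowest. The final step of catabolism that uses acetylated polyamines was thus represented by few transcripts, with 45 to 58 Paox reads per library in 1C-MIM and 45 to 69 in Control, while the spermine oxidase gene had 9264 to 14585 reads in 1C-MIM and 11720 to 19456 in Control.

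**Figure D1:**
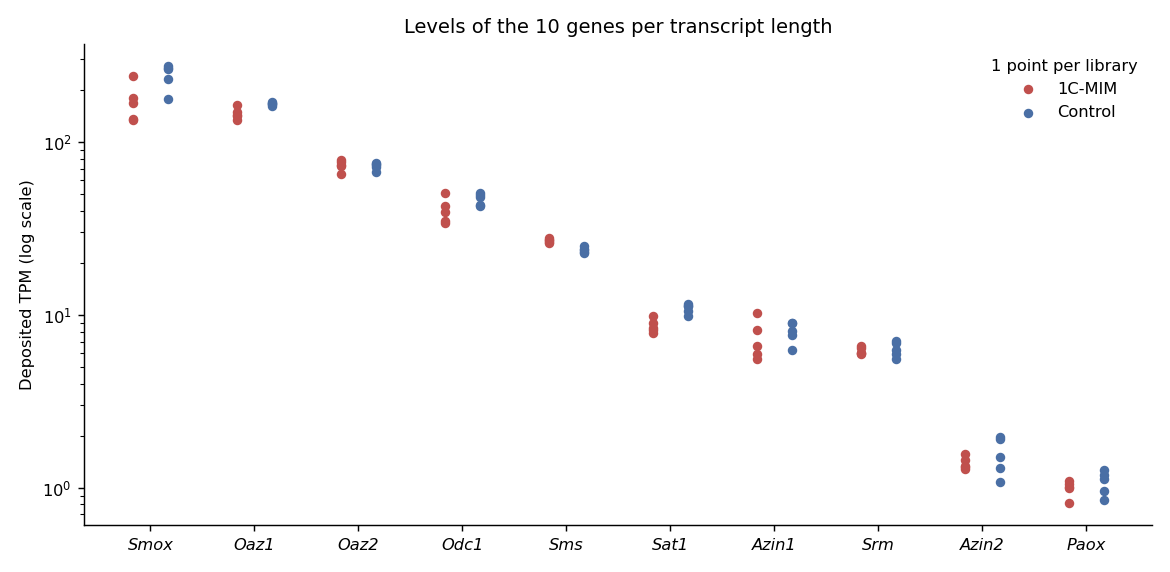
Deposited TPM (log axis) of the 10 genes in each library, ordered by their mean over all libraries, with 1C-MIM to the left of Control for each gene. Smox and Oaz1 head the order and Paox, at 0.814 to 1.26 TPM, closes it.

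Smox, Sat1 and Odc1 were lower in 1C-MIM muscle, by 30.9%, 21.8% and 15.4%, and the other 7 genes did not pass the test (an adjusted p under 0.05 in edgeR's quasi-likelihood test, with Benjamini-Hochberg adjustment over all 13880 genes). Over all genes tested, 11.8% were called lower and 9.78% higher, and the list of 10 was not itself tested against these shares. By edgeR 0 of the 10 genes were called higher, with 1 (Sms) at an unadjusted p under 0.05; DESeq2 called 1 higher and limma-voom 0. The fold change was negative for 8 of the 10 genes and for 49.9% of all genes tested, and its median was -0.16 over the 10 genes and 0.0009 over all genes (log2). In CPM, none of the 10 genes had groups that did not overlap, a separation seen in 14.6% of all genes tested (6.6% with 1C-MIM higher, 7.98% with 1C-MIM lower). With library totals as the scaling, 4 of the 10 genes were called lower and 0 higher (edgeR), where the shares of all genes were 20.9% and 4.37%. With the trend over transcript length removed 1 was called lower and 0 higher, where the shares were 9.5% and 6.99%. Without Control 1 and Control 5, 2 were called lower and 0 higher, where the shares were 6.94% and 5.92%.

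**Figure D2:**
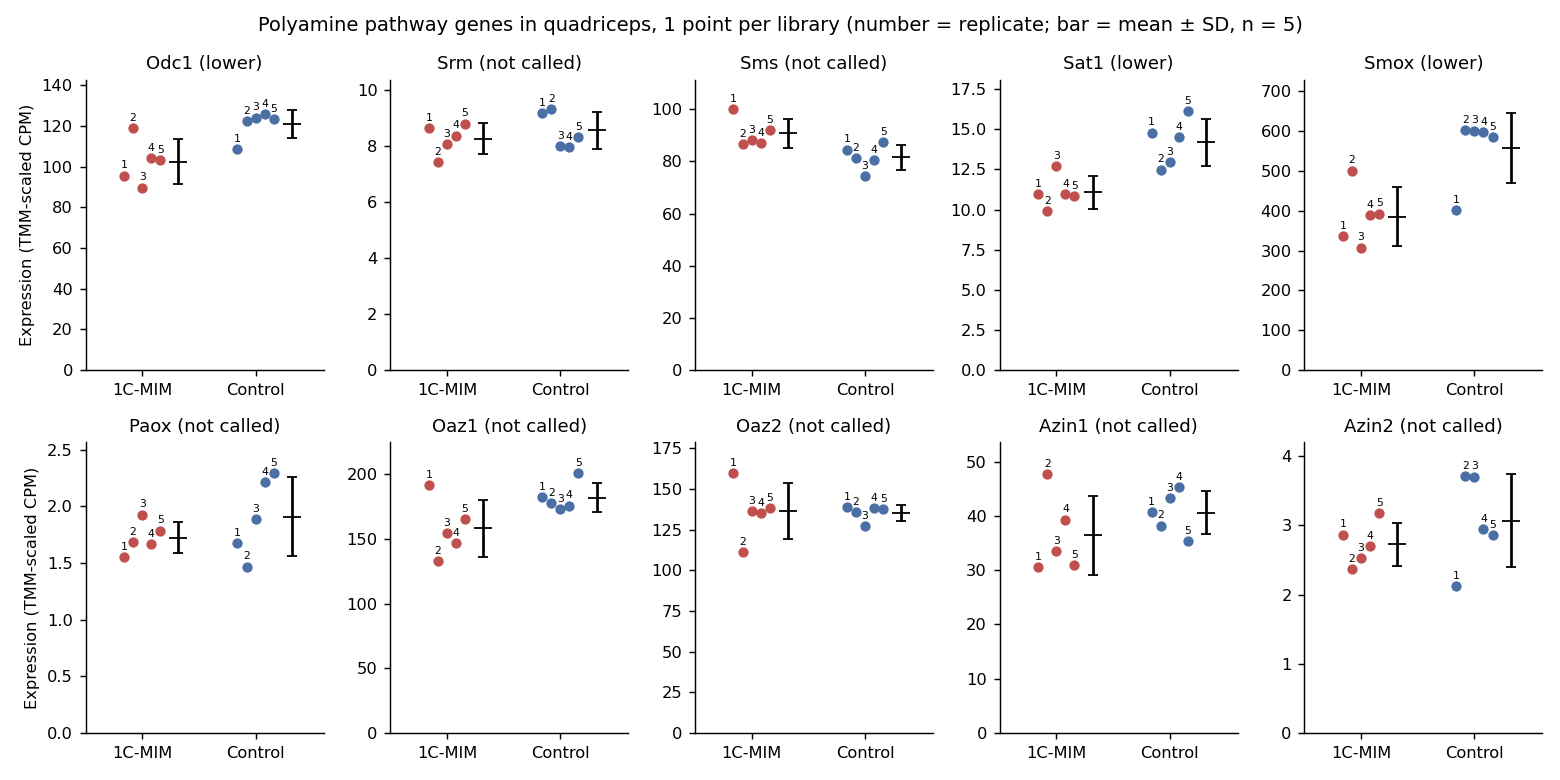
TMM-scaled CPM of each gene in every library, with the replicate number beside each point and the mean ± SD (n = 5) as a bar; 1C-MIM is to the left of Control and each axis starts at 0. For Smox and Odc1, 1C-MIM 2 stands above the other 1C-MIM libraries and Control 1 below the other Controls, and the groups overlap there.

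Smox encodes spermine oxidase, and it had the largest log2 fold change in size of the 10 genes. It reached 336, 501, 308, 389 and 393 CPM in 1C-MIM 1 to 5, against 401, 603, 601, 598 and 586 CPM in Control 1 to 5. All 1C-MIM libraries lay below the Control mean and 4 of 5 below every Control, while Control 1 lay far below the other Controls and 1C-MIM 2 above the other 1C-MIM libraries. The mean was 385 ± 74.0 CPM in 1C-MIM and 558 ± 87.8 CPM in Control (SD, n = 5 each), a log2 fold change of -0.53 (SE 0.14, adjusted p = 0.0189 by edgeR). The call was lost without Control 5 (log2 fold change -0.51, adjusted p = 0.0516 by edgeR) and after removal of the length trend (-0.48, adjusted p = 0.0580), within a range of 0.00219 to 0.0580 over 22 alternatives. Without Control 1 and Control 5 together it was -0.64 (SE 0.13, adjusted p = 0.00997 by edgeR).

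Smox has 9 RefSeq transcripts in the tables. Because a read that fits several transcripts is counted for each, their counts overlap and cannot be added. The kept transcript, NM_001177833 of 2262 bases, held the most counts, and the shortest, NM_001177840 of 1077 bases, held 51.2 to 53.0% of its counts in 1C-MIM and 50.6 to 51.8% in Control. These percentages overlapped between the groups. Among all transcripts compared with the kept one, only NM_001177837 had groups apart, at 86.5 to 87.5% in 1C-MIM and 85.5 to 86.4% in Control. This difference of about 1 percentage point was not tested, and the transcripts share reads.

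Sat1 encodes the acetyltransferase that marks spermidine and spermine for export or oxidation. Its levels were 10.95, 9.93, 12.7, 10.97 and 10.8 CPM in 1C-MIM 1 to 5, against 14.8, 12.5, 12.97, 14.5 and 16.1 CPM in Control 1 to 5. Only 1C-MIM 3, the highest of its group, reached into the Control range, where it passed Control 2 alone. The mean was 11.1 ± 1.02 CPM in 1C-MIM and 14.2 ± 1.47 CPM in Control (SD, n = 5 each), a log2 fold change of -0.36 (SE 0.09, adjusted p = 0.0139 by edgeR). The call held without any single library, at an edgeR adjusted p of up to 0.0391. It was lost without Control 1 and Control 5 together (-0.27, adjusted p = 0.0689 by edgeR) and after removal of the length trend (-0.20, adjusted p = 0.0900), where the range over 22 alternatives was 0.00298 to 0.0900. The kept Sat1 transcript has 1278 bases. The part that the macrophage, lymphocyte and matrix markers given earlier have in the level of Sat1 was not tested. The second Sat1 transcript held 94.1 to 98.1% of the counts of the first in 1C-MIM and 94.9 to 98.2% in Control.

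The 5 genes whose log2 CPM ran most closely with Sat1 over the 10 libraries were Fam101b (Pearson's r 0.97), Elovl1, an elongase of very long fatty acids (r 0.96), Actc1, the cardiac actin that embryonic skeletal muscle also makes (r 0.96), Hn1 (r 0.96) and Arl4c, a small GTPase (r 0.95). All 5 were lower in 1C-MIM, Actc1 the most with a log2 fold change of -1.48 (SE 0.27, adjusted p = 0.00606 by edgeR). These points share their libraries and the group difference, so the values are a description.

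Odc1 encodes ornithine decarboxylase, the short-lived enzyme at the entry of the pathway. It reached 95.6, 119, 89.7, 104 and 103 CPM in 1C-MIM 1 to 5, against 109, 122, 124, 126 and 123 CPM in Control 1 to 5. As for Smox, 1C-MIM 2 was the highest and 1C-MIM 3 the lowest of the supplemented libraries, Control 1 was the lowest Control, and 1C-MIM 2 was the 1 library that lay above a Control. The mean was 102 ± 11.1 CPM in 1C-MIM and 121 ± 6.92 CPM in Control (SD, n = 5 each), a log2 fold change of -0.24 (SE 0.07, adjusted p = 0.0341 by edgeR). Leaving out 1 library ended the call in 8 of 10 cases, with log2 fold changes of -0.30 to -0.19 and edgeR adjusted p of 0.0112 to 0.0959. It was kept only without Control 1 or without 1C-MIM 2 among these 10, and it held after removal of the length trend (-0.22, adjusted p = 0.0457 by edgeR).

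The animal numbers in the deposited names fall into 2 series, with 3 animals per group in the 200s and 2 per group in the 300s. Within the 300s Smox had 389 and 393 CPM in 1C-MIM against 586 and 598 CPM in Control, Sat1 10.8 and 10.97 CPM in 1C-MIM against 14.5 and 16.1 CPM in Control, and Odc1 103 and 104 CPM in 1C-MIM against 123 and 126 CPM in Control. Within the 200s the groups overlapped for Smox (308 to 501 CPM in 1C-MIM, 401 to 603 CPM in Control), for Odc1 (89.7 to 119 CPM in 1C-MIM, 109 to 124 CPM in Control) and for Sat1 (9.93 to 12.7 CPM in 1C-MIM, 12.5 to 14.8 CPM in Control). The log2 ratio of the group means was -0.49 in the 200s and -0.60 in the 300s for Smox, -0.26 and -0.49 for Sat1, and -0.22 and -0.27 for Odc1.

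The start regions of these 3 genes are shown because the genes moved in the same direction. Of the 10 genes 7 had an entry in RefSeq's promoter table (build GRCm38.p6, 250 bases before to 50 after the start), with 9 windows in all. Each sequence reads 5′ to 3′ along the gene, and capitals mark the GC box GGGCGG, searched on both strands and allowed to overlap. The windows are chr12:17544623-17544922 (plus strand) for Odc1, chr2:131491612-131491911 (plus strand) for Smox and chrX:155216400-155216699 (minus strand) for Sat1.
Odc1: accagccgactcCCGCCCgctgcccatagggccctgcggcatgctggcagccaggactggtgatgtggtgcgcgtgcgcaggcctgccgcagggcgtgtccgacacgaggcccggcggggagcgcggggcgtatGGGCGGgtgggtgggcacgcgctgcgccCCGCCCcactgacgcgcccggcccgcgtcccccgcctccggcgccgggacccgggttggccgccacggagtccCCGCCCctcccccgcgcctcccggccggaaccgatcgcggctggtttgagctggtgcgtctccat
Smox: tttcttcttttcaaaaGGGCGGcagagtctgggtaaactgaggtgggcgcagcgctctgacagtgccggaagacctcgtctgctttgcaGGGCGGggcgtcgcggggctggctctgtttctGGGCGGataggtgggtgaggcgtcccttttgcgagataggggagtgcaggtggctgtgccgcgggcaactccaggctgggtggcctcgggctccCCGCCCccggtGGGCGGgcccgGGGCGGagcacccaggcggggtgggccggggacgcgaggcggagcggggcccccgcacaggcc
Sat1: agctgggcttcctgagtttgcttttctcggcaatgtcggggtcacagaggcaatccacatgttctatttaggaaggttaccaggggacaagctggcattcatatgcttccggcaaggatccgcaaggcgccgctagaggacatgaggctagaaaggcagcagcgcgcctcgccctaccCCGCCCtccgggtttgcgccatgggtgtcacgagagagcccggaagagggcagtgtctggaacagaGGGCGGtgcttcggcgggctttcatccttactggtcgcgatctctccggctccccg
The Odc1 window held 4 GC boxes, that of Smox 6 and that of Sat1 2, and 78.0%, 71.0% and 60.3% of their bases were G or C, where the median over all windows was 52.7%. Of the genes not called, Oaz2 had 4 GC boxes in its window, Oaz1 had 0, and Paox had 3 in each window. Sms had 4 in 1 window and 0 in the other. The GC box was in 7 of the 9 windows and in 35.7% of all 32851 windows of the same length. The Paox windows among the 7 overlap each other and hold the same 3 GC boxes, so that start region is counted more than once. The E-box CACGTG, a site that MYC and the clock factors can bind, was in 1 window, the upstream one of Sms, and in 7.15% of all windows. The cAMP response element TGACGTCA was in 0 of the 9 windows and in 1.79% of all. These are matches of letters, counted on both strands, and not binding sites.

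Sms and Srm encode the synthases that follow Odc1. Sms, which makes spermine, reached 99.9, 86.8, 88.3, 86.9 and 92.1 CPM in 1C-MIM 1 to 5, against 84.6, 81.4, 74.5, 80.5 and 87.3 CPM in Control 1 to 5. All 1C-MIM libraries lay above the Control mean and 3 above every Control. The log2 fold change was 0.15 (SE 0.06), and it did not pass the test (adjusted p = 0.0811 by edgeR), although it did with DESeq2 (adjusted p = 0.0409), in a range of 0.0409 to 0.272 over 22 alternatives. In the deposited TPM the groups did not overlap for Sms, at 25.9 to 27.8 TPM in 1C-MIM and 22.9 to 25.0 TPM in Control, the 1 gene of the 10 with such a separation in TPM. In TPM, 3.6% of all genes tested were separated with 1C-MIM higher and 9.32% with 1C-MIM lower. Srm, which makes spermidine, had 7.42 to 8.80 CPM in 1C-MIM and 7.95 to 9.33 CPM in Control, with a log2 fold change of -0.05 (SE 0.08, adjusted p = 0.683 by edgeR) that turned to 0.10 after removal of the length trend. Paox, the oxidase of acetylated polyamines, had 1.55 to 1.93 CPM in 1C-MIM and 1.47 to 2.29 CPM in Control (log2 fold change -0.14, SE 0.15, adjusted p = 0.505 by edgeR).

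Of the antizyme genes, Oaz1 and Oaz2 are both expressed in most tissues. Oaz1 reached 192, 133, 154, 147 and 165 CPM in 1C-MIM 1 to 5, against 183, 178, 173, 176 and 201 CPM in Control 1 to 5. Of the 1C-MIM libraries 4 lay below every Control, and 1C-MIM 1 lay above 4 of the 5 Controls. The log2 fold change of -0.20 (SE 0.09) did not pass the test (adjusted p = 0.103 by edgeR). It passed without 1C-MIM 1 (-0.28, adjusted p = 0.0164 by edgeR) and with library totals as the scaling (-0.28, adjusted p = 0.0157), and it was -0.04 after removal of the length trend (adjusted p = 0.640, the highest of 22 alternatives). The counts of Oaz1 were within 1% of those of its pseudogene Oaz1-ps in every library, so reads of the gene and the pseudogene cannot be told apart in these tables. Oaz2 reached 160.0, 111, 136, 135 and 138 CPM in 1C-MIM 1 to 5, against 139, 136, 127, 138 and 138 CPM in Control 1 to 5. For both antizymes 1C-MIM 1 was the highest and 1C-MIM 2 the lowest library of the group. The log2 fold change of Oaz2 was 0.01 (SE 0.08, adjusted p = 0.949 by edgeR), and it was -0.07 with library totals as the scaling.

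The antizyme inhibitors did not pass the test either. Azin1 reached 30.6, 47.8, 33.5, 39.4 and 30.9 CPM in 1C-MIM 1 to 5, against 40.8, 38.2, 43.3, 45.3 and 35.4 CPM in Control 1 to 5. Here 3 1C-MIM libraries lay below every Control and 1C-MIM 2, again high, lay above every Control. The log2 fold change was -0.16 (SE 0.12, adjusted p = 0.346 by edgeR), and -0.28 after removal of the length trend (adjusted p = 0.0554, the lowest of 22 alternatives). Azin2, which brain and testis express most, had 2.37 to 3.17 CPM in 1C-MIM and 2.12 to 3.72 CPM in Control (log2 fold change -0.17, SE 0.16, adjusted p = 0.435 by edgeR). The library 1C-MIM 2 was thus the highest of its group for Smox, Odc1 and Azin1 and the lowest for Srm, Sms, Sat1, Oaz1, Oaz2 and Azin2. Its length slope, 0.12, was also the highest of all libraries, and the part of that slope in these ranks was not tested.

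**Figure D3:**
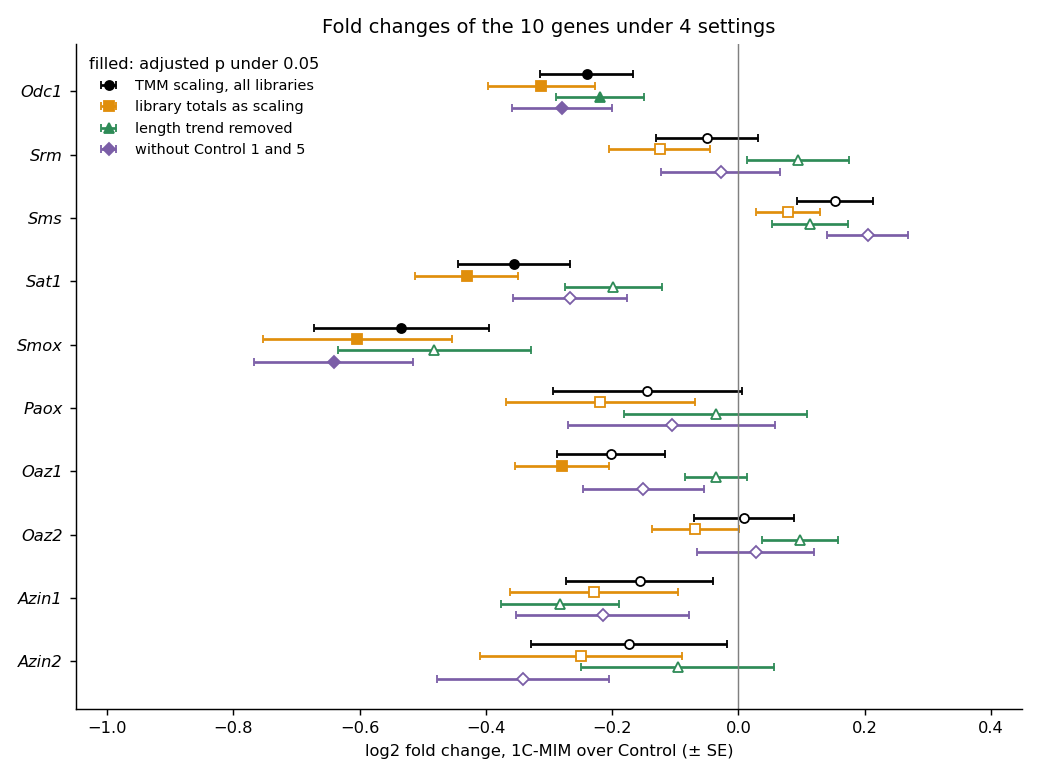
log2 fold change of each gene, 1C-MIM over Control, with its SE, under TMM scaling with all libraries, with library totals as the scaling, after removal of the length trend, and without Control 1 and Control 5; filled symbols have an adjusted p under 0.05. Smox, Sat1, Odc1, Paox, Oaz1, Azin1 and Azin2 stay below 0 under all 4 settings. Sms stays above 0, and Srm and Oaz2 lie on both sides of 0.

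Ratios of 2 genes within a library need no scaling factor, and 7 were compared by an exact permutation test over all assignments of the libraries to groups, two-sided, with a smallest possible p of 0.00794. After adjustment over the 7 ratios 0 were past 0.05, and 3 had an unadjusted p under 0.05. A lone ratio at the smallest p can reach only 0.0556 after this adjustment, so it could not pass by itself. The ratio of the decarboxylase to its main antizyme, Odc1 to Oaz1, differed by -0.03, less than its spread, with a mean log2 ratio of -0.63 ± 0.32 in 1C-MIM and -0.59 ± 0.13 in Control (SD, n = 5 each, exact permutation p = 0.873, adjusted 0.929). Its spread was wide in 1C-MIM (-1.01 to -0.16) and narrower in Control (-0.75 to -0.48). For Azin1 to Oaz1 the difference was 0.04 on the log2 scale (exact permutation p = 0.841, adjusted 0.929), and for Azin1 to Azin2 it was -0.03 (exact permutation p = 0.929, adjusted 0.929). The transcripts have 2547 bases for Odc1, 5028 for Azin1 and 1075 for Oaz1. After removal of the length trend the log2 fold changes were -0.22 for Odc1, -0.28 for Azin1 and -0.04 for Oaz1. The ratios themselves were not compared after that removal, so the small differences of Odc1/Oaz1 and Azin1/Oaz1 hold for the counts as deposited.

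The ratio of Oaz1 to Oaz2 was lower in 5 of 5 1C-MIM libraries than in any Control. Its log2 value was 0.12 to 0.26 in 1C-MIM and 0.34 to 0.55 in Control, a difference of -0.21 with the smallest p the design allows (exact permutation p = 0.00794, adjusted 0.0556). Without Control 5 the ratios Oaz1/Oaz2 (-0.18) and Srm/Sms (-0.24) passed the adjusted threshold, each at an adjusted exact permutation p of 0.0278. The unadjusted exact permutation p of Oaz1/Oaz2 was still 0.00794 there, and its difference was smaller in size. Its adjusted p fell because Srm/Sms also reached that smallest p. The Oaz1 transcript has 1075 bases and that of Oaz2 1841, and after removal of the length trend their log2 fold changes were -0.04 for Oaz1 and 0.10 for Oaz2. The ratio of Srm to Sms differed by -0.20 (exact permutation p = 0.0238, adjusted 0.0833), with log2 values of -3.54 to -3.37 in 1C-MIM and -3.38 to -3.12 in Control. Here too the lengths differ, at 1328 bases for Srm and 3377 for Sms. After removal of the length trend the log2 fold changes were 0.10 for Srm and 0.11 for Sms (adjusted p = 0.440 and 0.210 by edgeR). Against Paox, Sat1 differed by -0.23 (exact permutation p = 0.0476, adjusted 0.111) and Smox by -0.41 (exact permutation p = 0.0714, adjusted 0.125), with 5 of 5 1C-MIM libraries below the Control mean for Sat1 and 4 of 5 for Smox.

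**Figure D4:**
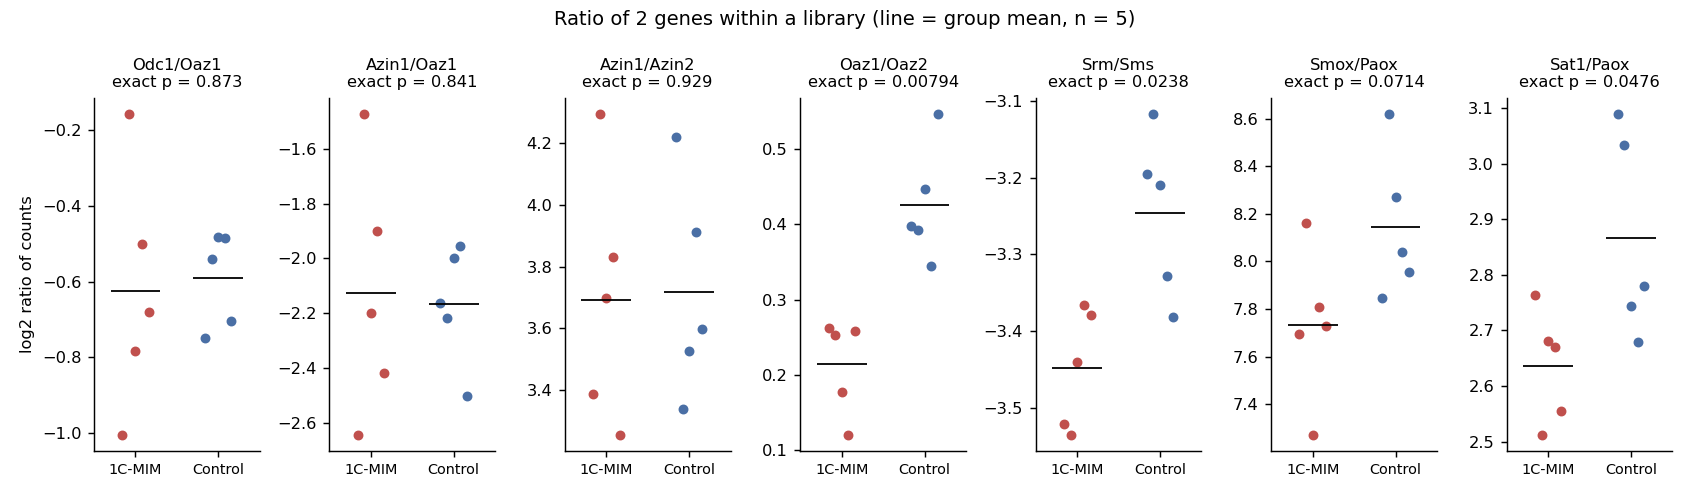
log2 ratio of the counts of 2 genes in each library for the 7 pairs, with the group mean as a line and the unadjusted exact permutation p above each panel; the vertical axes differ. The groups are apart for Oaz1/Oaz2 (0.12 to 0.26 in 1C-MIM, 0.34 to 0.55 in Control) and overlap for Odc1/Oaz1.

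The wider pathway was read from a list of 40 genes of polyamine supply, transport and use, of which 34 could be tested. Of these, 4 were higher in 1C-MIM, 1 was lower and 29 did not pass the test, where 9.78% of all genes tested were called higher and 11.8% lower, so the count of higher genes is near the background share. The median log2 fold change was -0.08 over the 34 genes and 0.0009 over all genes tested. Amd1 and Amd2, which share their reads, both count among the 34 and among the 29. The ornithine aminotransferase gene Oat, which links ornithine to glutamate in mitochondria, rose: it reached 346, 287, 351, 321 and 328 CPM in 1C-MIM 1 to 5, against 287, 280, 257, 277 and 271 CPM in Control 1 to 5. The lowest 1C-MIM library was just above the highest Control, and the log2 fold change was 0.25 (SE 0.06, adjusted p = 0.0130 by edgeR). Caveolin 1 (Cav1), a membrane protein linked to polyamine uptake and abundant in endothelium, rose by 0.29 on the log2 scale (SE 0.05, adjusted p = 0.00274 by edgeR), at 117 to 128 CPM in 1C-MIM and 96.9 to 106 CPM in Control. The 7 endothelial markers summed to 265 to 314 CPM in 1C-MIM and 190 to 266 CPM in Control, with none at 0 and 5 of 7 called higher, where 9.78% of all genes tested were, and their part in the level of Cav1 was not tested. Aoc3, a copper amine oxidase of vessels and fat that acts on other amines, rose by 0.41 on the log2 scale (SE 0.11, adjusted p = 0.0195 by edgeR) and lost its call after removal of the length trend (0.32, adjusted p = 0.0584, the highest of 22 alternatives).

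Polyamines also supply the aminobutyl group of hypusine, an amino acid made on the translation factor eIF5A. Eif5a, its gene, was 264 to 355 CPM in 1C-MIM and 342 to 400 CPM in Control, a log2 fold change of -0.23 (SE 0.08, adjusted p = 0.0413 by edgeR) that lost its call when any of 9 of the 10 libraries was missing (all but 1C-MIM 1, highest adjusted p 0.113), and also after removal of the length trend (-0.10, adjusted p = 0.126). The Eif5a call ended as well with the animal-number series as a block (adjusted p = 0.0508 by edgeR), with no filter on low counts (adjusted p = 0.0536) and without Control 1 and Control 5 (adjusted p = 0.138). The hypusine enzymes did not pass the test, deoxyhypusine synthase (Dhps) at -0.15 (SE 0.06, adjusted p = 0.0845 by edgeR) and deoxyhypusine hydroxylase (Dohh) at -0.17 (SE 0.06, adjusted p = 0.0689 by edgeR). The 5 genes that salvage methylthioadenosine, the by-product of both aminopropyl transfers, did not pass the test, with log2 fold changes of -0.14 to 0.07 and a smallest adjusted p of 0.225 (edgeR). Mxi1, an antagonist of MYC, rose by 0.20 on the log2 scale (SE 0.06, adjusted p = 0.0255 by edgeR), a call that the removal of the length trend ended (0.09, adjusted p = 0.439), as did leaving out 1C-MIM 3, Control 2, Control 3 or Control 4 (adjusted p of 0.0501 to 0.0604) and library totals as the scaling (0.13, adjusted p = 0.0792). Myc, a known activator of Odc1, had a log2 fold change of -0.17 (SE 0.12, adjusted p = 0.313 by edgeR).

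Amd1 encodes the decarboxylase that makes decarboxylated S-adenosylmethionine. It had 294, 369, 243, 323 and 295 CPM in 1C-MIM 1 to 5, against 361, 369, 320, 367 and 365 CPM in Control 1 to 5. Within 1C-MIM its libraries ranked as those of Odc1 did, with 1C-MIM 2 highest and 1C-MIM 3 lowest. Within Control they did not. There Control 2 was highest and Control 3 lowest for Amd1, while Control 4 was highest and Control 1 lowest for Odc1. The log2 fold change of Amd1, -0.23 (SE 0.09), did not pass the test (adjusted p = 0.0897 by edgeR). Its counts were within 1% of those of the near-identical Amd2 in every library, so the 2 genes cannot be told apart here. Arginase 1 (Arg1) had at most 3 reads in any library, and Agmat at most 5.

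**Figure D5:**
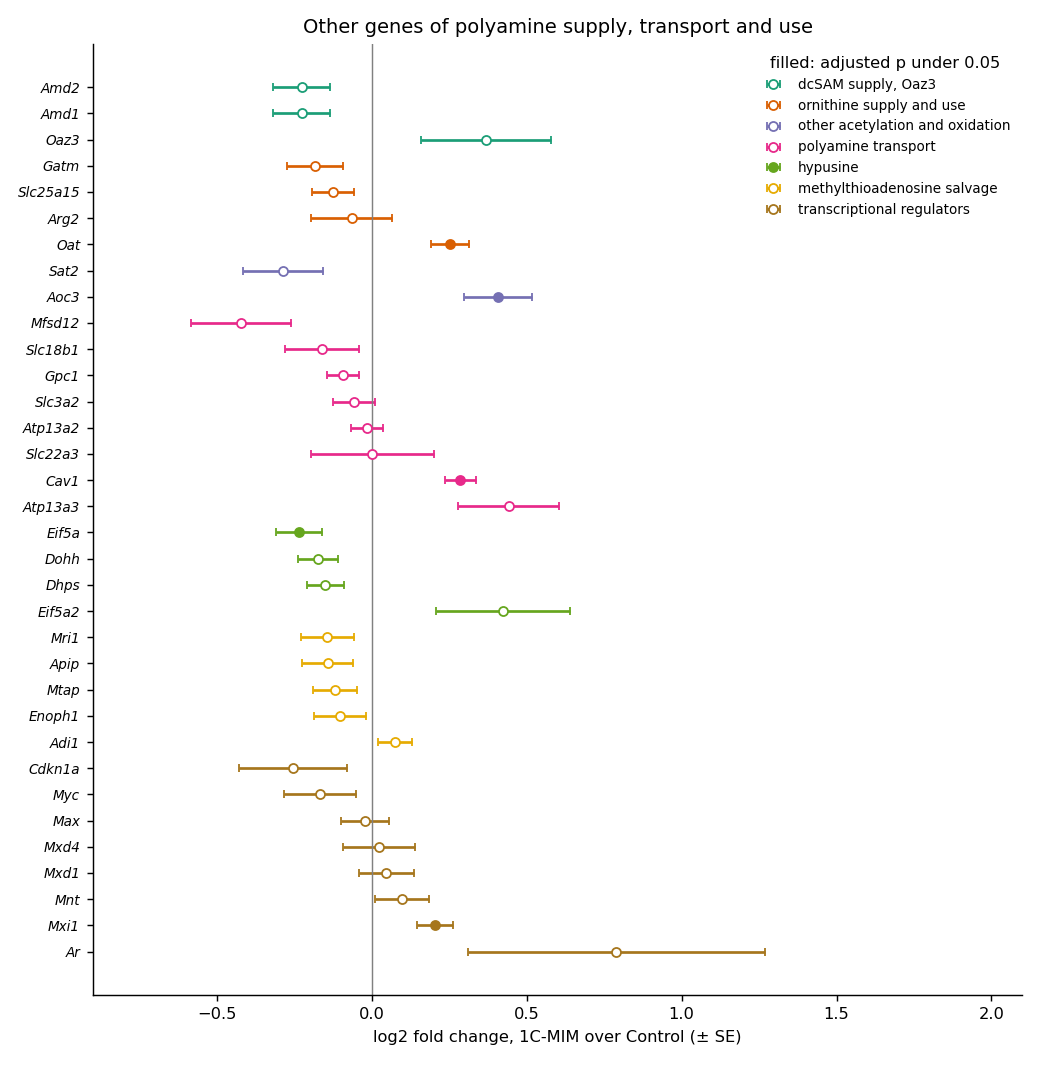
log2 fold change, 1C-MIM over Control, with its SE for the 34 tested genes of polyamine supply, transport and use, grouped by role from top to bottom; filled symbols have an adjusted p under 0.05. Oat, Aoc3, Cav1 and Mxi1 lie above 0 and Eif5a below it with filled symbols, and Amd1 and Amd2 share their reads.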

How the data were processed

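RNA from quadriceps of 10 mice was sequenced, 5 animals per group, with groups taken from the titles. Per the file headers, the tables list 33984 RefSeq transcripts with their count, FPKM and TPM. The deposited counts are whole numbers without normalization; the near-equal counts of isoforms of 1 gene show that a read can count for several transcripts. The deposited FPKM values, scaled by the authors per transcript length and library total, gave the transcript lengths. Levels between genes use the deposited TPM, which the authors scaled to 1000000 per library. Build GRCm39, DESeq2 1.28.0, STAR, featureCounts with Subread 2.0.1, Salmon 1.5.2, Trim Galore 0.6.7, StringTie 2.2.1, SAMtools 1.15.1, bedtools 2.30.0 and Picard 2.27.4 are in the submitters' processing notes, without roles. No source used here states strandedness.

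The transcript with the largest total stood for each symbol, so 45.3 to 47.4% of transcript counts were left out. Genes were filtered with filterByExpr, scaled with TMM and tested with edgeR 4.0.16 (R 4.3.3), quasi-likelihood with robust dispersion, on group alone; checked on simulated data. CPM are per 1000000 scaled counts. Ratios used a pseudocount of 2. Named were all 10 genes, the other pathway genes that passed the test, and the 5 genes most correlated with the member of smallest adjusted p in each direction; Amd1, the hypusine enzymes, Myc, Arg1 and Agmat were named after their values were seen. The members and lists were chosen with earlier results of these data known. Alternatives were scaling by DESeq2 size factors, upper quartiles or library totals; no filter, or 1 CPM in 5 libraries; DESeq2 1.42.0; limma-voom (limma 3.58.1); replicate number or animal-number series as a block; libraries left out; counts summed over transcripts; and removal of each library's length trend (natural spline with 3 inner knots, as an offset).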

Additional observations from a re-analysis of the deposited data

Results flagged for a closer look

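Of 34 groups of 5 values examined (the 10 genes and 7 ratios, in 1C-MIM and in Control), 3 held a library far from the others, and chance alone gives about 1 in 20. All 3 were Controls. Smox was 401 CPM in Control 1, where the nearest other Control had 586 CPM, a gap of 0.912 of the group's range. Odc1 was 109 CPM in Control 1, next to 122 CPM in the nearest Control, a gap of 0.808 of the range. Oaz2 was 127 CPM in Control 3, next to 136 CPM, a gap of 0.735. Control 1 was also the library with the highest sum of satellite and regenerating fibre markers (167 CPM, where the other Controls had 97.9 to 131 CPM), and the part of this in its Smox and Odc1 levels was not tested.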

How the results depend on the processing

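Over 22 alternatives the log2 fold changes of Odc1, Sms, Sat1, Smox, Paox, Oaz1, Azin1 and Azin2 kept their sign in all 22, that of Srm in 21 and that of Oaz2 in 19. The number of genes called higher and lower was 606 and 2896 with library totals as the scaling, and 832 and 976 without Control 1 and Control 5; leaving out 1 library gave 739 to 1558 higher and 941 to 1885 lower. Library totals shifted the median log2 fold change of all genes to -0.07. Among the 10 genes, 1 was called higher by DESeq2 (Sms), 1 was called lower after removal of the length trend (Odc1), and 1 to 3 were called lower without 1 library. With a pseudocount of 10, 3 ratios passed the adjusted threshold, each at an adjusted exact permutation p of 0.0370: Oaz1/Oaz2 at -0.21, Srm/Sms at -0.20 and Sat1/Paox at -0.24. Without 1 library Oaz1/Oaz2 was -0.23 to -0.18 and Srm/Sms -0.24 to -0.17, and both passed the adjusted threshold without Control 5 (adjusted exact permutation p 0.0278 each). The unadjusted exact permutation p of Oaz1/Oaz2 was 0.00794 in both settings, as with all libraries and a pseudocount of 2. The cause of the shifts between settings was not tested. The titles number the replicates but state no pairing. Correlations of same-numbered deviations were -0.08, 0.12, 0.06, 0.12 and 0.39, and not every library correlated best with its own number. Each value rests on 1 pair of libraries, and the replicate numbers follow the animal-number series in both groups. These correlations therefore cannot decide whether the numbers pair the libraries. With the replicate block, 1932 genes were called higher and 1965 lower, and of the 10 genes 1 higher (Sms, adjusted p 0.0485) and 4 lower, Oaz1 among them (adjusted p 0.0426); for the ratios, sign flips within the block gave adjusted exact p of 0.146 for Oaz1/Oaz2 and 0.219 for Srm/Sms, where 0.0625 is the smallest unadjusted p that 5 pairs allow. Depth limits Paox and Azin2, with 45 to 69 and 62 to 120 reads per library. Oaz1 cannot be separated from its pseudogene, nor Amd1 from Amd2. Transcript levels say nothing of enzyme activity or of polyamine content. The groups also differ in many, but not all, of the listed markers of macrophages, lymphocytes, matrix, endothelium and regenerating fibres.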
